A study of Mus musculus with 6 samples.

Results

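The cytosolic ribosomal proteins were taken from the deposited table as the gene symbols Rpl or Rps followed by a number, together with Rpsa, Rplp0, Rplp1 and Rplp2, leaving out the Rps6k kinases and the pseudogene (-ps) symbols. A mean of at least 10 normalised reads over the 6 libraries was required. This gave 86 genes of the 12568 that were tested (14526 are in the table), and no symbol of that form fell below the minimum. Small-subunit proteins made up 34 of them and large-subunit proteins 51. The remaining symbol, Rps19bp1, encodes a binding partner of Rps19 and came in by its name. Within the 86, 77 encode the standard ribosomal proteins and 8 are paralogs or gene copies (Rpl22l1, Rps27l, Rpl36al, Rpl7l1, Rps4l, Rpl32l, Rpl37rt and Rps27rt).

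RNA was sequenced from NMuMG cells, an established mouse mammary epithelial line in which TGF-beta brings about an epithelial to mesenchymal transition. In the siMnt group, 3 libraries came from cells given small interfering RNA against Mnt, and in the siNTC group, 3 libraries came from cells given a non-targeting one. Both groups received TGF-beta and all 6 samples were taken at day 4, so that no library here shows the cells without TGF-beta. Per the labels, the cells were plated at equal density, siRNA and TGF-beta were added together 16 hours later, and both were renewed on day 2. The labels do not say whether replicates were separate cultures, so that the p-values below measure only how far these samples lie apart, and part of that may be technical.

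Cytosolic ribosomes are built in the nucleolus from ribosomal RNA and about equal amounts of each ribosomal protein, and proteins that find no place in a ribosome are degraded. Ribosomal protein mRNAs are among the most abundant of growing cells and carry a 5′ oligopyrimidine tract, through which mTOR signalling sets their translation. Mnt, a transcriptional repressor, dimerises with Max on the E-box CACGTG, which Myc with Max also binds, and genes of ribosomal proteins and of ribosome assembly are known Myc targets.

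Promoter sequences are shown because that E-box is where Mnt with Max would bind. The RefSeq promoter table (GRCm38.p6, 250 bases before to 50 bases after each start, both strands searched) held 65 of the 86 genes. CACGTG was found in 6 of these 65 (9.23%), against 8.09% of all 27025 symbols in the table. The 6 genes were Rpl13a, Rpl14, Rpl19, Rpl23, Rpl34 and Rps19. The stretches around the E-box of 5 of them follow, each read 5′ to 3′ on the strand of the gene, with the E-box in capitals. Each ends before the start, except that of Rpl23, whose E-box spans the start and runs 3 bases past it.
Rpl13a, chr7:45128913-45128972, minus strand: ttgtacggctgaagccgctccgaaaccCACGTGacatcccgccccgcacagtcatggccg
Rpl14, chr9:120571322-120571381, plus strand: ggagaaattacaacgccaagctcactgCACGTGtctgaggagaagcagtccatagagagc
Rpl19, chr11:98026664-98026709, plus strand: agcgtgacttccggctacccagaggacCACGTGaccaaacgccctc
Rpl23, chr11:97782437-97782469, minus strand: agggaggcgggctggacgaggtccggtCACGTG
Rpl34, chr3:130730521-130730580, minus strand: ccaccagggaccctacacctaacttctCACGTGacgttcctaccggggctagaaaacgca
Rpl27, the gene with the lowest log2 fold change described below, held no CACGTG in this window. Its 100 bases before the start (chr11:101442145-101442244, plus strand) are shown for comparison.
Rpl27: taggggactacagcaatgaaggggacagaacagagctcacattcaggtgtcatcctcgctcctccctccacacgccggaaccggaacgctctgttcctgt

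Other motifs were searched as exact matches on both strands of the same windows. CCGGAAG, which ETS factors bind, was in 25 of the 65 promoters (38.5%, against 9.93% of all symbols). AAGATGGC, bound by YY1, was in 6 (9.23%, against 3.19%). A further motif of 10 bases, not spelled out here, was in 6 (9.23%, against 0.525%). The Rpl27 window held no exact match to these motifs, while the shorter ccggaa is in its stretch shown above. The median log2 fold change (siMnt minus siNTC) of the 6 genes with CACGTG was -0.14, with a range of -0.71 to 0.06. For the other ribosomal protein genes in the promoter table it was -0.21. None of the 6 passed the test, and at that number of genes the medians are given as a description.

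Mnt itself had 613, 557 and 749 normalised reads in siMnt replicates 1, 2 and 3, against 1316, 896 and 1596 in siNTC replicates 1, 2 and 3. All siMnt libraries lay below all siNTC libraries. The log2 fold change of Mnt was -0.96 ± 0.22 (SE, n = 3 each), with a limma adjusted p of 0.0546, and of 0.00442 with the replicate number as a block; over 22 alternatives its adjusted p ran from 0.0014 to 0.225. The values are normalised read counts, for which the authors divided each library's counts by its own size factor. Whole reads recovered from them gave totals of 22323050 to 25666005 in siMnt and 24767602 to 42193294 in siNTC libraries. The epithelial keratins and cadherin Krt8, Krt18, Krt7, Krt19 and Cdh1 (5 of 8 listed) summed to 129324 to 140806 normalised reads in siMnt and 118617 to 146720 in siNTC libraries. That sum hides single genes, whose log2 fold changes (siMnt minus siNTC) were -0.09, 0.06, -0.45, 0.34 and 0.53 in this order. For Cdh1 the limma adjusted p was 0.179, and 0.0474 with the block. Leukocyte markers in the table (3 of 7) summed to 29.8 to 43.2 normalised reads in siMnt and 11.6 to 14.4 in siNTC libraries, and endothelial markers (2 of 3) to 41.8 to 49.0 and 65.2 to 99.6. Mesenchymal markers (Vim, Fn1, Cdh2 and Acta2) summed to 82073 to 127106 in siMnt and 183344 to 318320 in siNTC libraries. The part of any of these in the ribosomal protein values was not tested.

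Most ribosomal protein genes had a log2 fold change slightly below 0, a shift that followed 1 control library as described below. Only 1 gene, Rpl27, passed the test. The genes vary together over the libraries and are not replicates, so counts over them are a description. The log2 fold changes lay below 0 in 82 of the 86 genes, against 51.4% of all tested genes. Their median was -0.20, against -0.01 over all tested genes, and they ran from -1.13 to 0.07 with an SD of 0.17 over the genes. Small-subunit and large-subunit proteins had medians of -0.20 each. At a limma adjusted p under 0.05, 1 of the 86 fell in siMnt cells, where 1.37% of all tested genes did. None rose, where 2.56% of all tested genes did. The count of genes that rose was also 0 at an unadjusted limma p under 0.05 (12.7% of all tested genes), and by edgeR (2.29%) and DESeq2 (6.71%) on the recovered reads. As lower, edgeR called 1 member (1.25% of all tested genes) and DESeq2 called 2 (4.89%), Rpl27 and Rps12. Groups did not overlap, with siMnt lower, in 13 of the 86 genes (15.9% of all tested genes), and with siMnt higher in 0 (15.6%). At an unadjusted limma p under 0.05, 8 genes were lower (10.7% of all tested genes), so neither count stood above its background.

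**Figure D1:**
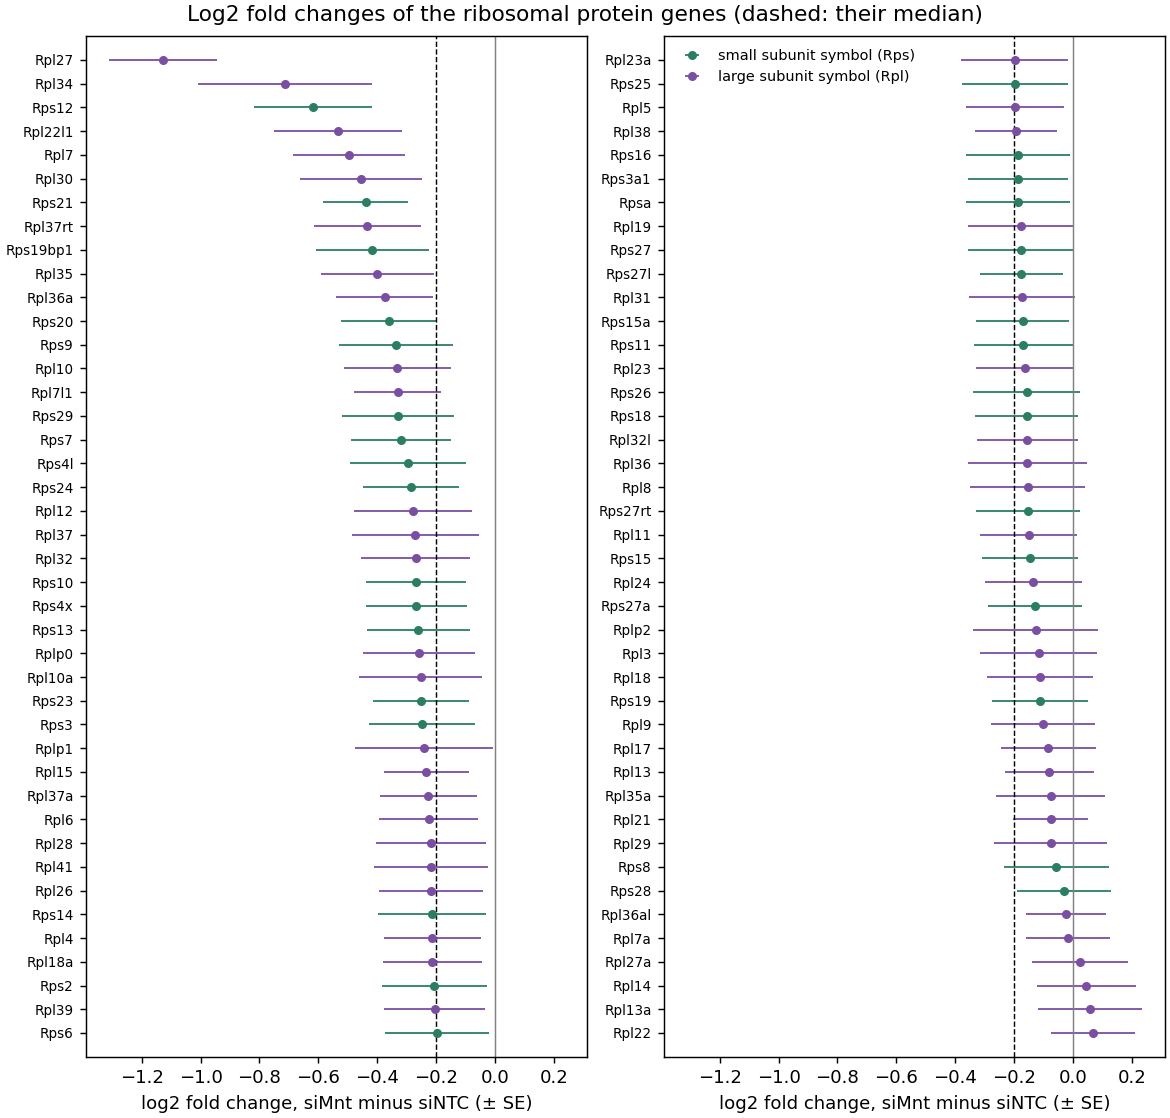
Log2 fold change, siMnt minus siNTC, of 84 of the 86 genes (points) with its standard error (bars), ordered from the lowest at the upper left to the highest at the lower right. Colours separate small-subunit from large-subunit symbols, and the dashed line is the median of -0.20. Rpl27 at -1.13 stands apart from the other genes, of which the next is Rpl34 at -0.71.

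The shift of the set followed 1 control library. Members took 2.39%, 2.79% and 2.70% of all reads in siMnt replicates 1, 2 and 3, against 2.74%, 3.89% and 2.56% in siNTC replicates 1, 2 and 3. The siNTC replicate 2 library held the highest share of the 6, and the other siNTC libraries lay within the siMnt range. The means were 2.63% ± 0.206 in siMnt and 3.06% ± 0.720 in siNTC (SD, n = 3 each), a ratio of 0.858. Without siNTC replicate 2 the ratio was 0.992.

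Gene by gene, siNTC replicate 2 was the highest of the 6 libraries for 85 of the 86 members, against 31.8% of all tested genes. The median deviation of the members from their own mean log2 level was -0.20, -0.04 and -0.06 in siMnt replicates 1, 2 and 3, against -0.01, 0.46 and -0.14 in siNTC replicates 1, 2 and 3. All 86 members lay above their own mean in siNTC replicate 2, and 2 did in siNTC replicate 3. The lowest library was siMnt replicate 1 for 54 members and siNTC replicate 3 for 21. Over all tested genes the median deviations of the libraries ran from -0.0036 to 0.0067.

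**Figure D2:**
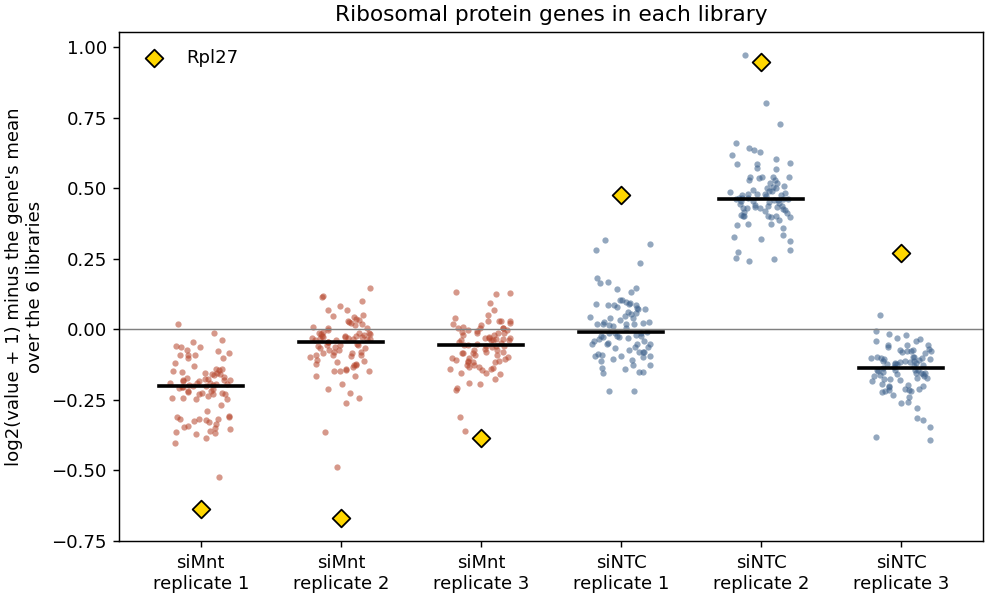
Deviation of each of the 86 ribosomal protein genes from its own mean over the 6 libraries, on the log2(value + 1) scale, in the 3 siMnt and the 3 siNTC libraries. Points are genes, black bars are medians and diamonds mark Rpl27. The cloud of siNTC replicate 2 sits highest, with a median of 0.46, while Rpl27 is the lowest member in each siMnt library and the highest in siNTC replicates 1 and 3.

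Without siNTC replicate 2, the median log2 fold change of the members was -0.02, and 53 of 86 lay below 0. By replicate number, the median log2 difference was -0.20 between the replicates 1, -0.51 between the replicates 2 and 0.08 between the replicates 3. The difference was below 0 for 77, 86 and 22 members for numbers 1, 2 and 3. The direction of the set thus differed between the numbered pairs. The labels name no batch or date for siNTC replicate 2, and what sets it apart was not tested. In RNA from whole cultures, fewer cells of a type and less RNA per cell cannot be told apart.

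Rpl27, a protein of the large subunit, was the member with the lowest log2 fold change. It had 2616, 2557 and 3109 normalised reads in siMnt replicates 1, 2 and 3, against 5651, 7837 and 4901 in siNTC replicates 1, 2 and 3. Every siMnt library lay below every siNTC library, and the difference was present in each numbered pair. The means were 2760 ± 303 in siMnt and 6130 ± 1525 in siNTC cells (SD, n = 3 each), so that siMnt cells held 45.0% of the siNTC level. The percentages within the numbered pairs were 46.3%, 32.6% and 63.4%. Rpl27 fell in siMnt cells with a log2 fold change of -1.13 ± 0.18 (SE) and a limma adjusted p of 0.0247 over all tested genes. The exact two-sided permutation p of its level was 0.1, the smallest that 3 against 3 samples allow.

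**Figure D3:**
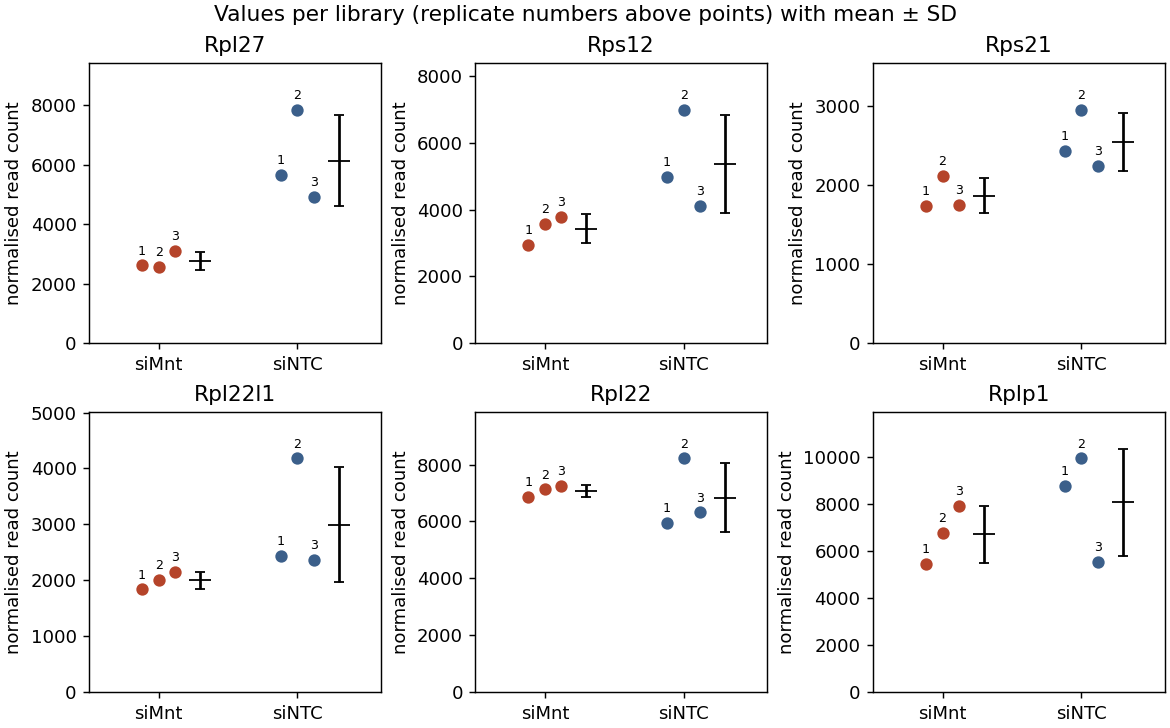
Normalised read counts of Rpl27, Rps12, Rps21, Rpl22l1, Rpl22 and Rplp1 in each library, with siMnt left of siNTC; points carry their replicate numbers, and crosses with bars give the mean ± SD of 3 libraries. Rpl27 averages 2760 in siMnt and 6130 in siNTC without overlap, Rps12, Rps21 and Rpl22l1 also do not overlap, and Rpl22 and Rplp1 do.

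Count tests on the recovered reads gave Rpl27 adjusted p-values of 0.0273 with edgeR and 2.92e-06 with DESeq2, and limma with the replicate block gave 0.00579. Without siNTC replicate 2, the library in which all members were high, the log2 fold change of Rpl27 was -0.94 and the limma adjusted p 0.0393, with Rpl27 the single member called lower (0.621% of all tested genes). Without siNTC replicate 3 it was -1.27 with an adjusted p of 0.003. The limma call was lost without siMnt replicate 1 (adjusted p 0.146), siMnt replicate 2 (0.127), siMnt replicate 3 (0.0533) or siNTC replicate 1 (0.104), with log2 fold changes of -1.09, -1.08, -1.22 and -1.17. When libraries were scaled to the ribosomal protein genes themselves, a choice made after the data were seen, Rpl27 had a log2 fold change of -0.90 and a limma adjusted p of 0.0699, and of 0.0117 with the block. Over 36 alternatives it passed in 27, with log2 fold changes between -1.28 and -0.90 and adjusted p-values between 2.26e-09 and 0.162.

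All 50-base windows of the Rpl27 coding sequence are also found in other symbols of the GENCODE M21 transcripts, 11 in number, among them pseudogenes of Rpl27. The sources used here do not say how reads that match several genes were treated, so the level of Rpl27 is uncertain. Its neighbours in the RefSeq gene order, named for their position after the values of Rpl27 were seen, are Ifi35 and Rundc1. Ifi35, an interferon-induced gene, had 561, 562 and 564 normalised reads in siMnt replicates 1, 2 and 3, against 466, 584 and 564 in siNTC replicates 1, 2 and 3. Rundc1 had 503, 548 and 614 in siMnt, against 451, 407 and 648 in siNTC. The groups overlapped for each neighbour, and neither passed the test (limma adjusted p of 0.806 and 0.645).

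The next members by fold change were Rpl34, Rps12, Rpl22l1, Rpl7 and Rpl30, none of which passed limma on all 6 libraries without a block or correction. Rpl34, a large-subunit protein, had 104, 103 and 103 normalised reads in siMnt replicates 1, 2 and 3, against 165, 260 and 114 in siNTC. It was the member with the lowest level per kilobase of transcript, and its siMnt libraries were nearly equal while the siNTC libraries spread widely. Its log2 fold change was -0.71 ± 0.29 (SE, n = 3 each), with a limma adjusted p of 0.195. Without siNTC replicate 3 Rpl34 passed at 0.0287, its lowest adjusted p over 22 alternatives (highest 0.418). Rpl34 shares 72.2% of its coding windows with other symbols, among them the pseudogene Rpl34-ps1. That pseudogene had 3060, 3207 and 3288 normalised reads in siMnt replicates 1, 2 and 3, against 3464, 5243 and 3204 in siNTC. Its groups overlapped, with a log2 fold change of -0.28 ± 0.18 (limma adjusted p of 0.393). How reads were divided between these symbols is not known, so the level and the fold change of Rpl34 are uncertain.

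Rps12 belongs to the small subunit and, in Drosophila, acts in the competition between cells with unequal ribosomal protein gene dose. It had 2935, 3564 and 3782 normalised reads in siMnt replicates 1, 2 and 3, against 4968, 6984 and 4121 in siNTC. The groups did not overlap, and the gap between siMnt replicate 3 and siNTC replicate 3 was small. The log2 fold change of Rps12 was -0.62 ± 0.20, with a limma adjusted p of 0.118 and, over 22 alternatives, of 0.025 to 0.374. It passed with the replicate block (0.0331), with DESeq2 (0.0382), with a correction for GC content and length (0.0464) and without siNTC replicate 3 (0.025).

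With the block, 3 members passed as lower (Rpl27, Rps12 and Rps21), where 6.56% of all tested genes did, and 0 as higher, where 9.33% did. Correcting each library for trends with GC content and length gave 2 members (Rpl27 and Rps12), where 2.93% of all tested genes were lower, and 6 together with the block, where 8.13% were. Rps21, a small protein of the small subunit, is named for that call, after its values were seen. It had 1742, 2123 and 1751 normalised reads in siMnt replicates 1, 2 and 3, against 2432, 2957 and 2249 in siNTC. The groups did not overlap, and the log2 fold change of Rps21 was -0.44 ± 0.14, with limma adjusted p-values of 0.121 without and 0.0247 with the block.

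Rpl7, which binds the large-subunit RNA, had 16379, 18811 and 18144 normalised reads in siMnt replicates 1, 2 and 3, against 22455, 33315 and 21003 in siNTC. Its groups did not overlap, and its log2 fold change was -0.50 ± 0.19 with a limma adjusted p of 0.169. Rpl30, another large-subunit protein, had 308, 251 and 350 in siMnt, against 389, 524 and 344 in siNTC. The groups overlapped through siMnt replicate 3 and siNTC replicate 3, and the log2 fold change of Rpl30 was -0.46 ± 0.21 with a limma adjusted p of 0.232. Rpl7 shares 77.53% and Rpl30 83.11% of the coding windows with other symbols, so their levels are uncertain.

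Beside Rpl27, Rpl34, Rps12, Rpl7 and Rps21, the members whose groups did not overlap included the paralogs Rpl22l1 and Rpl7l1, the copy Rpl37rt, and Rpl35, Rpl36a, Rps20 and Rps7. Rps7, a small-subunit protein mutated in Diamond-Blackfan anaemia in humans, had 4367, 4615 and 4600 normalised reads in siMnt replicates 1, 2 and 3, against 5195, 7353 and 4730 in siNTC. The siNTC replicate 2 library stood far above the rest, while siNTC replicate 3 lay only just above the siMnt libraries. The log2 fold change of Rps7 was -0.32, with a limma adjusted p of 0.294.

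At the other end, the members with the highest log2 fold changes were Rpl22, Rpl13a, Rpl14, Rpl27a, Rpl7a and Rpl36al, all of the large subunit and all close to 0. Rpl22, an RNA-binding protein that in mice also represses the mRNA of its paralog Rpl22l1, had 6857, 7128 and 7253 normalised reads in siMnt replicates 1, 2 and 3, against 5951, 8219 and 6317 in siNTC. The siMnt values lay inside the siNTC range. The log2 fold change of Rpl22 was 0.07 ± 0.14, with a limma adjusted p of 0.825.

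Rpl13a, which also takes part in silencing of inflammatory mRNAs after interferon-gamma, had 9257, 10878 and 9976 in siMnt, against 9463, 12212 and 7729 in siNTC. Its groups overlapped, and its log2 fold change was 0.06 ± 0.18. The log2 fold changes of Rpl14, Rpl27a, Rpl7a and Rpl36al were 0.04, 0.02, -0.02 and -0.03, and their limma adjusted p-values ran from 0.907 to 0.961. For each of these 6 members the sign changed when single libraries were left out, so that no direction is given for them.

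The stalk proteins Rplp0, Rplp1 and Rplp2, which recruit the GTPase factors of translation to the ribosome, did not pass the test. Rplp0, the base of the stalk, had 29601, 35540 and 36574 normalised reads in siMnt replicates 1, 2 and 3, against 38766, 50776 and 33445 in siNTC. Rplp1 had 5449, 6753 and 7894 in siMnt, against 8745, 9926 and 5524 in siNTC. Rplp2 had 915, 1122 and 1236 in siMnt, against 1396, 1377 and 862 in siNTC. The groups overlapped in each of the 3 genes. As in the median of all members, siMnt replicate 1 was the lowest siMnt library for each of the 3 genes, and siNTC replicate 3 was the lowest siNTC library. The log2 fold changes were -0.26, -0.24 and -0.13, and the limma adjusted p-values 0.454, 0.573 and 0.763. Their median log2 differences by replicate number were -0.61, -0.51 and 0.51 for numbers 1, 2 and 3, so that the sign turned with the number, as it did in the median of all members. Rplp2 was the highest in siNTC replicate 1 and is the single member whose highest library was not siNTC replicate 2.

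Rpl5 and Rpl11 carry the 5S ribosomal RNA into the large subunit and, when free, bind the p53 ubiquitin ligase Mdm2. Rpl5 had 19596, 20359 and 21824 normalised reads in siMnt replicates 1, 2 and 3, against 21396, 29542 and 20767 in siNTC. Rpl11 had 4743, 5294 and 5415 in siMnt, against 5379, 7214 and 4805 in siNTC. The groups of both genes overlapped. Their log2 fold changes were -0.20 ± 0.17 and -0.15 ± 0.16, with limma adjusted p-values of 0.512 and 0.618.

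Of the proteins made as a fusion with ubiquitin or a ubiquitin-like protein, Rps27a is a member, while Fau (Rps30) carries another symbol. Rps27a had 8959, 9126 and 9308 normalised reads in siMnt replicates 1, 2 and 3, against 8842, 12639 and 8909 in siNTC. Fau had 9979, 11272 and 11964 in siMnt, against 11173, 15556 and 10052 in siNTC. In both genes siNTC replicate 2 was the highest library and the groups overlapped. The log2 fold changes were -0.13 and -0.13, and the limma adjusted p-values 0.669 and 0.719. Rack1, a scaffold protein on the small subunit, had 25047, 27670 and 29205 in siMnt, against 31536, 42856 and 28181 in siNTC, with overlapping groups and a log2 fold change of -0.30 ± 0.18.

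Proteins at functional sites of the ribosome had log2 fold changes near the median of the set. Rps2, Rps3, Rps15 and Rps23, which line the mRNA entry and the decoding site, had log2 fold changes of -0.25 to -0.15. Rpl3, Rpl8 and Rpl10, which reach towards the peptidyl transferase centre, had -0.33 to -0.12, and Rpl4, Rpl17 and Rpl39 of the exit tunnel had -0.21 to -0.09. None of these 10 genes passed the limma test, none had an unadjusted p under 0.05, none passed with edgeR or DESeq2, and the groups overlapped in all of them.

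Levels can be set side by side between genes only per length. Per kilobase of transcript, the members ran from 295 to 34515 normalised reads with a median of 9342. The length was that of a single chosen transcript per symbol, so the order of the members depends on that choice. For some members it far exceeded the coding sequence, with 3706 against 357 bases for Rps20 and 1908 against 729 for Rps3. Rpl8, at the peptidyl transferase centre, was the highest, followed by Rpl41 (29833), Rplp0 (27578), Rps4x (23837), Rpl23a (23556) and Rps3a1 (22493), and Rpl34 was the lowest. Rpl8 had 25325, 29748 and 27558 normalised reads in siMnt replicates 1, 2 and 3, against 30544, 39131 and 23926 in siNTC, with overlapping groups. The log2 fold changes of these 6 members highest per kilobase were between -0.27 and -0.15, and their groups overlapped. These levels are uncertain: 70 of the 86 members share more than 50% of their 50-base coding windows with another symbol, such as a pseudogene, and 2 share none. Rps19bp1 is 1 of these 2, with 488, 561 and 523 in siMnt replicates 1, 2 and 3, against 686, 908 and 547 in siNTC, overlapping groups and a log2 fold change of -0.42 ± 0.19. The 7 pseudogene symbols that were tested had a median log2 fold change of -0.18, and of 0.0087 without siNTC replicate 2.

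Paralogs were compared with their standard partners as a ratio per transcript length within each library, which does not depend on the scaling of the libraries. How reads were divided between genes of like sequence is not known, so the ratios are uncertain. Coding windows shared with other symbols made up 82.65% of Rpl22l1, 31.04% of Rpl22 and 100% of both Rpl36al and Rpl36a. Rpl22l1 stood at 23.0%, 24.1% and 25.5% of Rpl22 in siMnt replicates 1, 2 and 3, against 35.1%, 43.7% and 32.1% in siNTC. All siMnt libraries lay below all siNTC libraries. The log2 ratio was lower in siMnt by a difference of -0.60, with an exact permutation p of 0.1, the smallest that 3 against 3 samples allow, and 0.25 after adjustment over 5 paralog pairs. As levels, Rpl22l1 had 1836, 1999 and 2152 normalised reads in siMnt, against 2429, 4179 and 2360 in siNTC, with a log2 fold change of -0.53 ± 0.22 and a limma adjusted p of 0.192.

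Rpl36al, a copy of Rpl36a, had the opposite sign against its partner. It stood at 92.7%, 85.7% and 86.6% of Rpl36a in siMnt replicates 1, 2 and 3, against 68.4%, 65.1% and 74.7% in siNTC. Again the groups did not overlap, and the log2 ratio was higher in siMnt by 0.35 (exact permutation p of 0.1, adjusted 0.25). Rpl36al had overlapping groups, with 2817, 2666 and 2788 normalised reads in siMnt against 2616, 3365 and 2508 in siNTC. For Rpl36a the groups did not overlap, with 2790, 2857 and 2956 in siMnt against 3510, 4750 and 3085 in siNTC.

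The ratios of the other 3 pairs overlapped between the groups. Rps27l, a p53-induced paralog of Rps27, stood at 80.2% to 90.3% of it in siMnt and 77.3% to 89.5% in siNTC libraries. All coding windows of Rps27 are also found in other symbols, among them the copy Rps27rt, so this ratio is uncertain. Rpl7l1 stood at 13.2% to 15.5% of Rpl7 in siMnt and 11.9% to 13.6% in siNTC libraries, and Rps4l at 1.87% to 2.22% of Rps4x in siMnt and 1.90% to 2.32% in siNTC libraries. The exact permutation p-values were 1, 0.2 and 0.7.

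The members with the widest spread between libraries of the same group were Rpl34, Rplp1, Rpl22l1, Rpl37, Rplp2 and Rpl10a. Rpl37 had 1464, 1710 and 1493 normalised reads in siMnt replicates 1, 2 and 3, against 1465, 2662 and 1684 in siNTC. Rpl10a had 9393, 10882 and 10362 in siMnt, against 10725, 17072 and 9790 in siNTC. In each gene siNTC replicate 2 stood far above the other 5 libraries, whose groups intermingled, and the limma adjusted p-values were 0.486 and 0.503. Rpl37 shares 82.23% of its coding windows with other symbols, among them the copy Rpl37rt. Over the 6 libraries Rpl37rt had a mean of 12693 normalised reads, against 1746 for Rpl37. The level, spread and overlap of Rpl37 are therefore uncertain.

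Across the 6 libraries, the log2 levels of 70 of the 86 members had a Pearson r of at least 0.9 with the mean of all members. The lowest were Rpl22 (r = 0.65), Rplp2 (0.69), Rpl13a (0.75) and Rpl27 (0.77). These r values describe 6 libraries that share siNTC replicate 2, and 902 other tested genes also reached 0.9. The genes outside the set with the highest r were Psmb2, a proteasome subunit, and Ddx47, an RNA helicase (0.997 each), the elongation factor Eef1a1 (0.997), the pseudogene Rps19-ps3 (0.996) and the ribosome assembly factor Mrto4 (0.994). Psmb2 had 2321, 2564 and 2485 normalised reads in siMnt replicates 1, 2 and 3, against 2620, 3465 and 2421 in siNTC, with siNTC replicate 2 again the highest.

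Genes of the same pathway were described from lists chosen for their roles. Of 34 ribosome biogenesis factors, 1 (Heatr1) fell with limma, where 1.37% of all tested genes did, and 0 rose, where 2.56% did. A log2 fold change below 0 was found for 33 of them (51.4% of all tested genes). The siNTC replicate 2 library was the highest of the 6 for 30 of the factors (31.8% of all tested genes). The median was -0.45, and -0.28 without siNTC replicate 2, where the members' own median was -0.02. At an unadjusted limma p under 0.05, 18 of the factors were lower (10.7% of all tested genes) and 1 higher (12.7%). Groups did not overlap, with siMnt lower, in 17 (15.9%) and, with siMnt higher, in 1 (15.6%). DESeq2 called 4 lower (4.89%) and 0 higher (6.71%). Heatr1, which acts in ribosomal RNA transcription and processing, had 1132, 998 and 1222 normalised reads in siMnt replicates 1, 2 and 3, against 2008, 2055 and 1556 in siNTC. The groups did not overlap, and Heatr1 fell in siMnt cells, with a log2 fold change of -0.74 ± 0.15 (limma adjusted p of 0.0411). The call held without siNTC replicate 3 (0.0059) and was lost without siMnt replicate 1, 2 or 3 or siNTC replicate 1 or 2, with adjusted p-values up to 0.182, while its log2 fold change stayed between -0.87 and -0.66. With the replicate block 8 biogenesis factors passed as lower (6.56% of all tested genes) and 1 as higher (9.33%), and with siNTC replicate 3 left out 21 passed as lower and 1 as higher. That fit called 6.50% of all tested genes lower and 9.51% higher, and 3 of the ribosomal protein genes lower (Rpl27, Rpl34 and Rps12).

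Mitochondrial ribosomal proteins, which make up the separate ribosome of that organelle, had a median log2 fold change of -0.15 over 78 genes, and -0.01 without siNTC replicate 2. None passed with limma or edgeR; 10 were lower and 1 higher at an unadjusted limma p under 0.05 (10.7% and 12.7% of all tested genes), and DESeq2 called 2 lower and 1 higher (4.89% and 6.71%). The siNTC replicate 2 library was the highest of the 6 for 71 of them. Mrps6 of the small mitochondrial subunit had 2272, 2403 and 1990 normalised reads in siMnt replicates 1, 2 and 3, against 1608, 1661 and 1618 in siNTC. Its groups did not overlap, and its log2 fold change was 0.44 ± 0.12 (limma adjusted p of 0.0716, and 0.028 with the block). Mrpl13 of the large mitochondrial subunit had 1429, 1524 and 1538 in siMnt, against 2163, 2991 and 1916 in siNTC. It too did not overlap, with a log2 fold change of -0.63 ± 0.17 (limma adjusted p of 0.0769, and 0.0197 with the block).

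**Figure D4:**
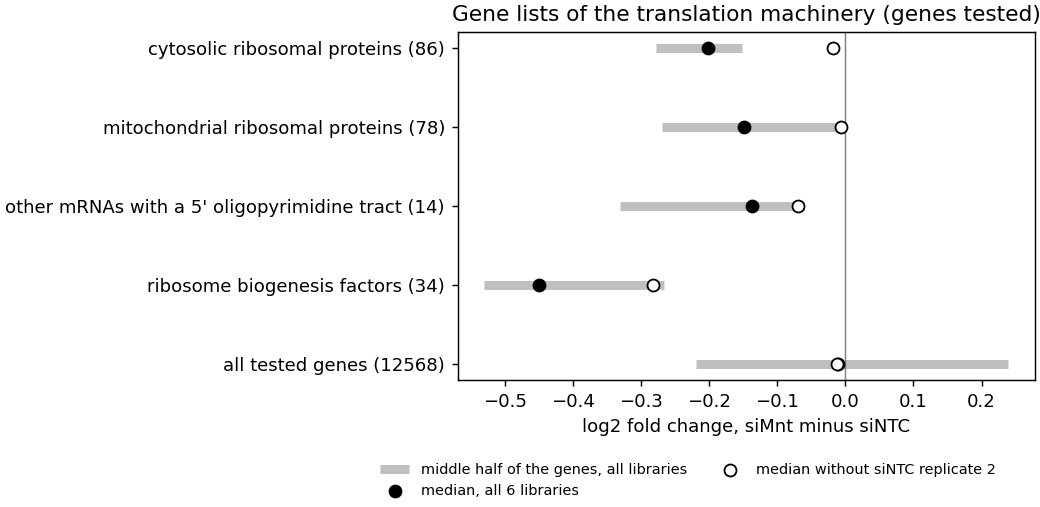
Log2 fold changes, siMnt minus siNTC, of the cytosolic ribosomal proteins and other gene lists of the translation machinery, with the number of genes tested. Filled circles are medians over all 6 libraries, grey bars span the 25th to the 75th percentile and open circles are medians without siNTC replicate 2. The open circle of the cytosolic ribosomal proteins lies at -0.02 and that of the ribosome biogenesis factors at -0.28.

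Other mRNAs with a 5′ oligopyrimidine tract, 14 in number, had a median log2 fold change of -0.14, and of -0.07 without siNTC replicate 2. The groups did not overlap, with siMnt lower, in 3 of them (15.9% of all tested genes). With siMnt higher they did not overlap in 2 (15.6%), Eif3f and Eif4b, named after their values were seen. With limma and edgeR 0 of the 14 passed, and DESeq2 called 1 lower (4.89% of all tested genes). At an unadjusted limma p under 0.05, 2 were lower (10.7% of all tested genes) and 0 higher (12.7%). The elongation factor subunit Eef1b2 had 12576, 13600 and 14054 normalised reads in siMnt replicates 1, 2 and 3, against 18663, 25361 and 15438 in siNTC. Its groups did not overlap, and its log2 fold change was -0.53 ± 0.19 (limma adjusted p of 0.139). The initiation factor subunit Eif3h had 6406, 7201 and 7610 in siMnt, against 8890, 10614 and 7751 in siNTC, and a log2 fold change of -0.35 ± 0.15 (limma adjusted p of 0.199).

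Regulators of ribosomal protein mRNA translation in the mTOR pathway had a median log2 fold change of 0.02 over 14 genes. With limma and edgeR 0 passed. At an unadjusted limma p under 0.05, 2 were higher (12.7% of all tested genes) and 0 lower (10.7%), and DESeq2 called 2 higher (6.71%). The 2 with the smallest p were Eif4ebp2, a repressor of cap-dependent initiation, and Deptor, an inhibitory mTOR partner. Eif4ebp2 had 1378, 1242 and 1192 normalised reads in siMnt replicates 1, 2 and 3, against 816, 431 and 886 in siNTC, and Deptor had 3071, 2571 and 3207 in siMnt, against 1662, 1128 and 2467 in siNTC. All siMnt libraries lay above all siNTC libraries for both genes. Their log2 fold changes were 0.90 ± 0.26 and 0.82 ± 0.26, with limma adjusted p-values of 0.0879 and 0.111, and of 0.0177 and 0.012 with the block.

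Free ribosomal proteins bind Mdm2 and so stabilise p53. Of Trp53, its regulators Mdm2 and Mdm4, and its target genes Cdkn1a, Ccng1 and Bax, 6 in all, 0 passed with limma and edgeR. At an unadjusted limma p under 0.05, 1 was lower (10.7% of all tested genes) and 0 higher (12.7%), and DESeq2 called 1 lower (4.89%). Trp53, which encodes p53, had 1747, 1894 and 2021 normalised reads in siMnt replicates 1, 2 and 3, against 2718, 3274 and 2342 in siNTC. The groups did not overlap, and the log2 fold change of Trp53 was -0.55 ± 0.15 (limma adjusted p of 0.0746, and 0.0264 with the block). Mdm2 had 87652, 99648 and 73181 in siMnt, against 102696, 134682 and 80628 in siNTC. Its groups overlapped, with a log2 fold change of -0.27 ± 0.24 (limma adjusted p of 0.535).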

How the data were processed

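RNA sequencing of 6 NMuMG libraries (3 siMnt, 3 siNTC) was analysed from the authors' table of 14526 genes. Per the submitters' processing notes, TopHat2 2.1.0, DESeq2 and the mm9 genome were used; the gene annotation, counting tool, strand and handling of reads matching several genes: not given in the sources used here. The deposited unit is a normalised signal: the authors' counts after division by a size factor for each library. Dividing by the value of 1 read gave whole reads within 0.05 read for 99.75% of the deposited values. Samples were grouped by their titles. Values were taken as log2(value + 1), which understates the change of low genes, 1958 genes with a mean under 10 were left out, and limma 3.58.1 (R 4.3.3, empirical Bayes with trend, no block) tested 12568 genes with Benjamini-Hochberg adjustment; genes passed at an adjusted p under 0.05. Same-numbered libraries deviated together across all tested genes (r = 0.28, 0.50 and 0.35 for numbers 1, 2 and 3). Other pairs had r of -0.38 to 0.03. For this reason limma was also run with a block for the replicate number. Over the ribosomal protein genes alone, r was -0.34, 0.13 and -0.27 for these numbers, and -0.11 to 0.35 for other pairs. The block thus rests on all tested genes. Correlation across the members removes any shift that a library's members have in common. These r therefore cannot show whether that common shift was paired, and only gene-by-gene differences within the set showed no pairing. What the numbers share is not in the labels. edgeR 4.0.16 and DESeq2 1.42.0 were run on the recovered reads; edgeR called 157 genes lower and 288 higher, DESeq2 614 lower and 843 higher, and limma 172 lower and 322 higher. Transcript lengths, GC content and 50-base coding windows came from GENCODE M21 on GRCm38, used for properties alone. No libraries were copies (mean chi-square per gene between replicates of 15.1 or more). The members and gene lists were chosen with earlier results of these data known. Genes named are those that passed, the 6 highest and 6 lowest members, the 6 highest per kilobase, the 6 most variable, the stalk, 5S and ubiquitin-fusion proteins and paralogs, Mnt, the passing or 2 lowest-p genes of other lists and the 5 genes most alike; others are said to be named after their values were seen or stand for a fixed list. Results for 3 individual genes are left out of the text but stay in the counts and medians. Scripts were tested on simulated data. Python 3.11.15 and pandas 2.3.3 prepared the tables.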

Additional observations from a re-analysis of the deposited data

How the results depend on the processing

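The count of ribosomal protein genes called lower was 1 (Rpl27) and moved to 3 with the replicate block (limma, and edgeR on the recovered reads), 2 with the GC and length correction, 6 with the block and that correction together, 2 with DESeq2 and 0 when libraries were scaled to the ribosomal protein genes; leaving out single libraries gave 0 to 3. No alternative called a member higher. The edgeR block and the scaling to ribosomal protein genes were added after the data were seen. The median log2 fold change was -0.33 to -0.02 when single libraries were left out, the value nearest 0 being without siNTC replicate 2. It was -0.22 to -0.14 under the other alternatives for which it was taken. These do not include the scaling to the ribosomal protein genes, which itself moves that median. Signs turned for genes near 0: Rpl36al was 0.0601 and Rpl7a 0.0346 with the GC and length correction, with and without the block, and Rpl7a was 0.00507 when scaled to the library total. Leaving out single libraries gave -0.11 to 0.11 for Rpl36al, -0.12 to 0.10 for Rpl7a, -0.10 to 0.19 for Rpl27a, -0.10 to 0.22 for Rpl14, -0.10 to 0.23 for Rpl13a, -0.0258 to 0.207 for Rpl22, -0.33 to 0.0239 for Rpl8, -0.28 to 0.0165 for Rpl11, -0.22 to 0.0407 for Rps27a, -0.26 to 0.0591 for Fau and -0.38 to 0.00872 for Rps15a-ps6. The cause of these changes was not tested. Of the values of single named genes under the alternatives, 967 kept direction and call, 46 newly passed, 15 no longer passed and 20 turned sign. With 3 libraries a group, precision is set by the spread between libraries rather than by read depth.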
